A study of Homo sapiens with 12 samples.

Results

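The nuclear genes for subunits of the oxidative phosphorylation machinery were examined for chromatin occupancy by 5 proteins in HEK293T cells. The set was defined by gene symbol: protein-coding genes of chromosomes 1 to 22 and X named NDUFA, NDUFB, NDUFC, NDUFS or NDUFV plus a number, or beginning with UQCR, COX4 to COX8, or ATP5. It held 81 of 19974 protein-coding genes: 36 of complex I, 9 of complex III, 17 of complex IV and 19 of complex V. No measured value entered that definition. Complex II (SDHA, SDHB, SDHC and SDHD), CYC1 and NDUFAB1 do not carry these names and are given separately below. The study asked where the Integrator subunit INTS13 and proteins that interact with it sit in the genome, and whether they sit together. Wild-type HEK293T cells, which are a transformed line from human embryonic kidney, were fixed with formaldehyde, and chromatin was immunoprecipitated with antibodies against INTS13, INTS11, HDGF, ZEB1 or ZNF609. All groups shared the cell line and carried no treatment, and the antibody was the only difference between them that the labels name. There were 2 libraries per protein and 2 input libraries, and the input libraries were not used here. Whether the 2 replicates were separate cultures is not stated in the labels, and their spread may be technical.

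Oxidative phosphorylation makes most of the ATP of a respiring cell. Complex I passes electrons from NADH to ubiquinone, complex III passes them on to cytochrome c, and complex IV, cytochrome c oxidase, hands them to oxygen; all of these pump protons across the inner mitochondrial membrane, and complex V, the ATP synthase, uses the gradient to make ATP. A few subunits are encoded in mitochondrial DNA, whereas the genes described here are nuclear, short for the most part, and transcribed in nearly all tissues; several have promoters with sites for NRF1, for GABP and for YY1. Integrator is a complex that binds RNA polymerase II near gene starts and cleaves its nascent RNA. INTS11 is its endonuclease, and INTS13 belongs to a separate module with INTS10 and INTS14. HDGF is a nuclear protein with a PWWP domain, a fold that binds chromatin. ZEB1 is a transcription factor known for silencing epithelial genes through E-boxes, and ZNF609 is a less studied zinc finger factor.

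The 250 bases upstream of the start of 7 of these genes are shown because the occupancy of the genes differs most clearly. At their ends, 4 had regions of 4 proteins, and these 4 lie in dense bins (defined below). ATP5F1C had regions of both Integrator subunits, and ATP5F1A and NDUFV2 had no peak of any list. ATP5F1C, ATP5F1A and NDUFV2 lie outside dense bins. The nearest HDGF peak edges of the 2 lists were 179 and 2440 kb from ATP5F1A and 372 and 401 kb from NDUFV2. INTS13 peaks lay closer. Their nearest edges were 7.67 and 179 kb from ATP5F1A and 1.74 and 25.3 kb from NDUFV2. The part of the surroundings in these differences was not tested. Sequences are from RefSeq, GRCh38.p14, written 5′ to 3′ on the strand of the gene. Capitals mark letters of the searched motifs (GGGCGG or CCGCCC for SP1, CGCATGCG for NRF1, GCGGGGGCG for EGR1, CACCTG for ZEB1), on either strand. The proteins given are those with a region within 1 kb of a gene end, which need not cover the printed bases.
ATP5IF1, regions of 4 proteins at the gene ends, chr1:28235874-28236123, plus strand: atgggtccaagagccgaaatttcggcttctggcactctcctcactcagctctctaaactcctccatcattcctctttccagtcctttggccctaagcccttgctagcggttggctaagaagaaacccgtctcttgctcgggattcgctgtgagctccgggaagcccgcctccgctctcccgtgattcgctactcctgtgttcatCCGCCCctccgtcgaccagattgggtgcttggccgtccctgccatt
NDUFB10, regions of 4 proteins, chr16:1959288-1959537, plus strand: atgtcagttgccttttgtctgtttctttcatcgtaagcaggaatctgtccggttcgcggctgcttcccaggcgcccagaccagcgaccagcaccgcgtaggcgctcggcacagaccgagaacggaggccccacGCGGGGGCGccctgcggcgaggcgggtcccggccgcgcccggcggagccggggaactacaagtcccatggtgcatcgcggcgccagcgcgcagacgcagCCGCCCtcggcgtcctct
NDUFB2, regions of 4 proteins, chr7:140696458-140696707, plus strand: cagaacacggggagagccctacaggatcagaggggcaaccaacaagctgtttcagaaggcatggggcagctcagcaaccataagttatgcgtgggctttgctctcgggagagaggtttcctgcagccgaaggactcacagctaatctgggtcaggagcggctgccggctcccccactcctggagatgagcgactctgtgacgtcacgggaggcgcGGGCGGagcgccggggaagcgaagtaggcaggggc
UQCR10, regions of 4 proteins, chr22:29767119-29767368, plus strand: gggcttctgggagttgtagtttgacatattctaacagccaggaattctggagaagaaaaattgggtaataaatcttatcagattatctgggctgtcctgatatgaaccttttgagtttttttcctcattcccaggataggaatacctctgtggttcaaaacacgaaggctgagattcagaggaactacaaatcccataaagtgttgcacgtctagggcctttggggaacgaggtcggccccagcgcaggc
ATP5F1C, regions of INTS13 and INTS11, chr10:7787927-7788176, plus strand: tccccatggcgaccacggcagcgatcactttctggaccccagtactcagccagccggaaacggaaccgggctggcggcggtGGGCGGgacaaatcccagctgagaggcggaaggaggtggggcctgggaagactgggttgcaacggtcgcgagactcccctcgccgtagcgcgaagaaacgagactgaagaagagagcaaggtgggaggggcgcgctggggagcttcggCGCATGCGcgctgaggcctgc
ATP5F1A, no peak in any list, chr18:46104228-46104477, minus strand: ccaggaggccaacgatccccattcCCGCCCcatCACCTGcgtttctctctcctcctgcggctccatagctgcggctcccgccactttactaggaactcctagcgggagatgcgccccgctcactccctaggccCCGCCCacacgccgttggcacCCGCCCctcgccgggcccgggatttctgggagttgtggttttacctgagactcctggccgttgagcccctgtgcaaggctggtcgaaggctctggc
NDUFV2, no peak in any list, chr18:9102449-9102698, plus strand: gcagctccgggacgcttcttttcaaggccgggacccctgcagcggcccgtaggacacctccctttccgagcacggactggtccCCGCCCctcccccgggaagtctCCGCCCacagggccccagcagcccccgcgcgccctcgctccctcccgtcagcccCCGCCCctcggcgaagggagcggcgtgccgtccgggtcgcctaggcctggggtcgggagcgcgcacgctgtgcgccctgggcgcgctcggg
All of the printed bases or part of them lay under regions of INTS13, INTS11, HDGF and ZEB1 at NDUFB10, of INTS13, INTS11 and HDGF at NDUFB2 and UQCR10, of INTS13, INTS11 and ZEB1 at ATP5IF1, and of INTS13 alone at ATP5F1C. The GC box of SP1 is present both in genes with regions of 4 proteins and in genes with none, and the UQCR10 stretch holds no searched motif. Over the 66 of 81 subunit genes with a promoter in the reference table, a window from 250 bases before to 50 bases after the start was searched on both strands. The NRF1 letters CGCATGCG were in 12.1% of subunit genes (8 of 66) and in 2.9% of all 15812 protein-coding genes with a promoter. The YY1 letters AAGATGG were in 22.7% of subunit genes and 6.36% of all genes, and the GABP letters CCGGAAG in 27.3% of subunit genes and 14.1% of all genes. The GC box was about equally frequent, in 60.6% of subunit genes and 58.3% of all genes, and so were the ZEB1 letters CACCTG, in 19.7% and 19.9%. The EGR1 letters GCGGGGGCG were in 6.06% of subunit genes and 6.7% of all genes, and GCGTGGGCG in 1.52% of subunit genes and 1.1% of all genes. EGR1 letters can overlap a GC box, as they do in COX5A, and such a stretch was counted for both. The median GC content of these windows was 59.8% for subunit genes and 62.7% for all genes. A match describes the letters of a promoter and shows no binding, and none of these factors was immunoprecipitated except ZEB1.

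Each deposited list holds the peaks of 1 library, and the lists held between 26417 and 417057 peaks with median widths between 402 and 655 bp. Read depth is unknown. A gene was counted for a protein when a region lay within 1 kb of either gene end, where a region is a merged stretch that holds a peak of each replicate. All 5 proteins have many peaks in the same broad stretches of the genome. Bins of 1 Mb were taken as dense if, as a median of the 10 lists, they held more than 2 times as many peaks as the average bin. This held for 382 of 3038 bins, and 23 of 81 subunit genes (28.4%) touched one, against 4607 of 19974 protein-coding genes (23.1%). Counts outside dense bins are therefore given beside the main counts.

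INTS13 regions lay at 59 of the 81 subunit genes (72.8%), INTS11 regions at 23 (28.4%) and HDGF regions at 32 (39.5%). The shares over all protein-coding genes were 63.7% for INTS13, 17.4% for INTS11 and 22.2% for HDGF. ZEB1 regions lay at 4 subunit genes (4.94%, against 3.78% of all genes), and ZNF609 regions at none of the 81 (against 1.57%). At these settings HDGF had the widest gap between subunit genes and all genes, 17.3 percentage points, and ZEB1 and ZNF609 were close to the background. That order depended on the settings. The gap was wider for INTS13 than for HDGF with summits inside the window (14.3 against 9.61 points) and with a −log10 q of 5 or more (7.78 against 3.51). With gene starts only it was 9.07 points for INTS11 and 8.87 for HDGF.

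Both lists of INTS13, INTS11 and HDGF gave subunit genes the higher share. INTS13 peaks were at the ends of 88.9% of subunit genes in replicate 1 and 75.3% in replicate 2, against 79.5% and 68.1% of all genes. INTS11 peaks were at 64.2% and 30.9% of subunit genes, against 50% and 22.2% of all genes. HDGF peaks were at 69.1% and 49.4% of subunit genes, against 38.5% and 34.6% of all genes. For INTS13 and INTS11 the 2 lists differed from each other more than subunit genes differed from all genes in either list. For HDGF the lower subunit share, in replicate 2, was above both shares of all genes. ZEB1 peaks were at 19.8% and 16% of subunit genes, against 13.3% and 8.48% of all genes, and ZNF609 peaks at 6.17% and 4.94%, against 7% and 3.43%. No test was made: an exact permutation test of 2 libraries against 2 cannot give a two-sided p below 0.333, and genes are not replicates.

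**Figure D1:**
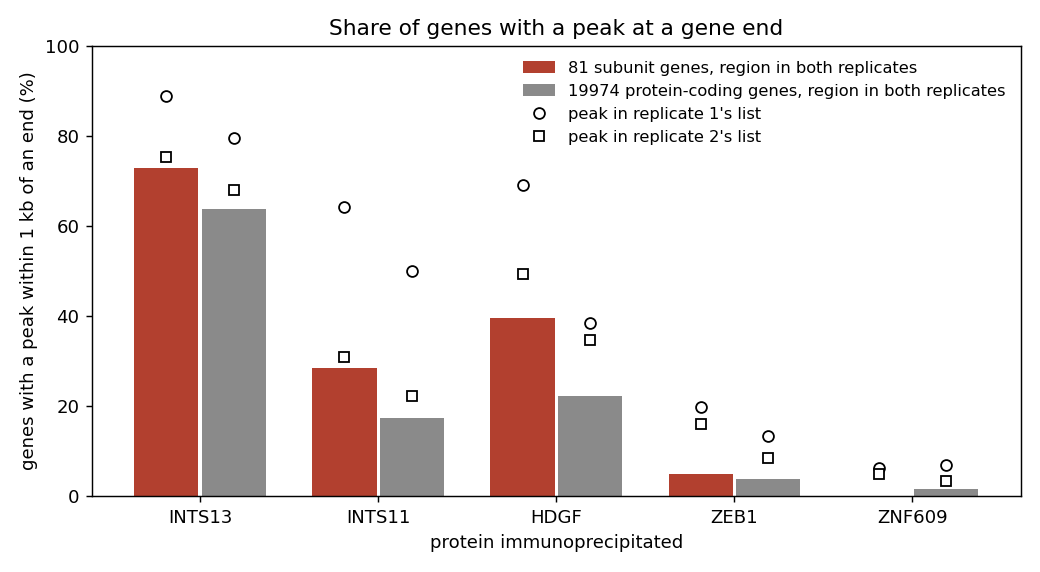
Share of genes (y axis, percent) with a peak within 1 kb of a gene end for each immunoprecipitated protein (x axis). Red bars give the 81 subunit genes and grey bars all 19974 protein-coding genes with a region of both replicates, circles replicate 1's list and squares replicate 2's list. The widest gap between red and grey bars is that of HDGF, 39.5% against 22.2%.

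Counted by gene, replicate 2 was nested in replicate 1 at the subunit genes, or nearly so, for HDGF, INTS11 and INTS13. All 40 subunit genes with an HDGF peak in replicate 2 also had one in replicate 1, against 76.9% of the 6908 protein-coding genes with a replicate 2 peak. For INTS11 this held for 25 of 25 subunit genes, against 90% of genes, and for INTS13 for 60 of 61 (98.4%), against 96.6% of genes. ZEB1 was the other way: 4 of the 13 subunit genes with a replicate 2 peak had one in replicate 1 (30.8%), against 58.2% of all genes. These counts are of genes, and the peaks need not overlap. At 9 of the 40 HDGF genes the 2 lists formed no shared region, and over all genes at 1160 of 5311. Replicate 1 HDGF peaks were also at 69.1% of subunit genes against 38.5% of all genes, so the nested share need not mean closer agreement. A region can reach a gene through merging when only 1 list has a peak inside the window, and this was the case for NDUFA7 with HDGF and for ATP5ME with INTS11.

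Outside dense bins the same order of proteins was seen with smaller shares. INTS13 regions lay at 38 of 58 subunit genes there (65.5%), against 54.3% of the 15367 protein-coding genes outside dense bins. INTS11 regions lay at 9 (15.5%, against 5.82%) and HDGF regions at 15 (25.9%, against 12.4%). No subunit gene outside dense bins had a ZEB1 or ZNF609 region, and the shares over all genes there were 0.169% for ZEB1 and 0.039% for ZNF609. Within dense bins INTS13 regions lay at 91.3% of the 23 subunit genes, against 95.3% of all genes in dense bins, and INTS11 regions at 60.9%, against 56.2%. HDGF regions lay at 73.9% of the subunit genes in dense bins, against 54.8% of all genes there. HDGF was thus the protein whose share at subunit genes was above the share over all genes by over 10 percentage points both inside and outside dense bins.

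Subunit genes also differ from other genes in length and in how close their neighbours lie, and both move with these counts. Their median length was 8266 bp, against 24170 bp over all protein-coding genes, and 45.7% of them had another protein-coding gene's end within 1 kb, against 28.6%. Among genes of 5 to 20 kb, HDGF regions lay at 24 of 47 subunit genes (51.1%), against 27.5% of all genes of that length. INTS11 regions lay at 34%, against 20%, and INTS13 regions at 80.9%, against 68.4%. Among genes under 5 kb INTS13 regions lay at 16 of 20 subunit genes (80%), against 58.6%, and HDGF regions at 6 (30%), against 23.3%. The long subunit genes were different: of the 14 of 20 kb or more, 5 had an INTS13 region (35.7%, against 62.7% of all genes of that length), none had an INTS11 region (against 16.2%) and 2 had an HDGF region (14.3%, against 19%). Without a neighbouring end, 36.4% of 44 subunit genes had an HDGF region, against 17.1%; with one, 43.2% of 37, against 34.7%. The part of length and of neighbours in the counts over all lengths was not tested further.

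By complex, ATP synthase genes had the highest shares for INTS13, INTS11 and HDGF, and cytochrome c oxidase genes the lowest. The shares over all genes were 63.7% for INTS13, 17.4% for INTS11 and 22.2% for HDGF, so complex IV was close to them for INTS13 and INTS11. INTS13 regions lay at 16 of 19 complex V genes (84.2%), 7 of 9 of complex III, 25 of 36 of complex I and 11 of 17 of complex IV (64.7%). HDGF regions lay at 10 complex V genes (52.6%), 14 of complex I, 3 of complex III and 5 of complex IV (29.4%). INTS11 regions lay at 7 complex V genes (36.8%), 11 of complex I, 2 of complex III and 3 of complex IV (17.6%). In the single lists, HDGF peaks were at 84.2% and 63.2% of complex V genes and at 58.8% and 35.3% of complex IV genes. The complexes were not equally placed: 10 of 19 complex V genes touched a dense bin, against 2 of 17 of complex IV, 8 of 36 of complex I and 3 of 9 of complex III. Outside dense bins HDGF regions lay at 3 of 9 complex V genes (33.3%), 8 of 28 of complex I (28.6%), 4 of 15 of complex IV (26.7%) and none of 6 of complex III. The share over all genes there was 12.4%. INTS11 regions there lay at 2 of 9, 5 of 28, 2 of 15 and none of 6 in the same order, against 5.82% of all genes. The HDGF gap between complexes V and IV in the full count was thus much narrower outside dense bins, with few genes in each.

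**Figure D2:**
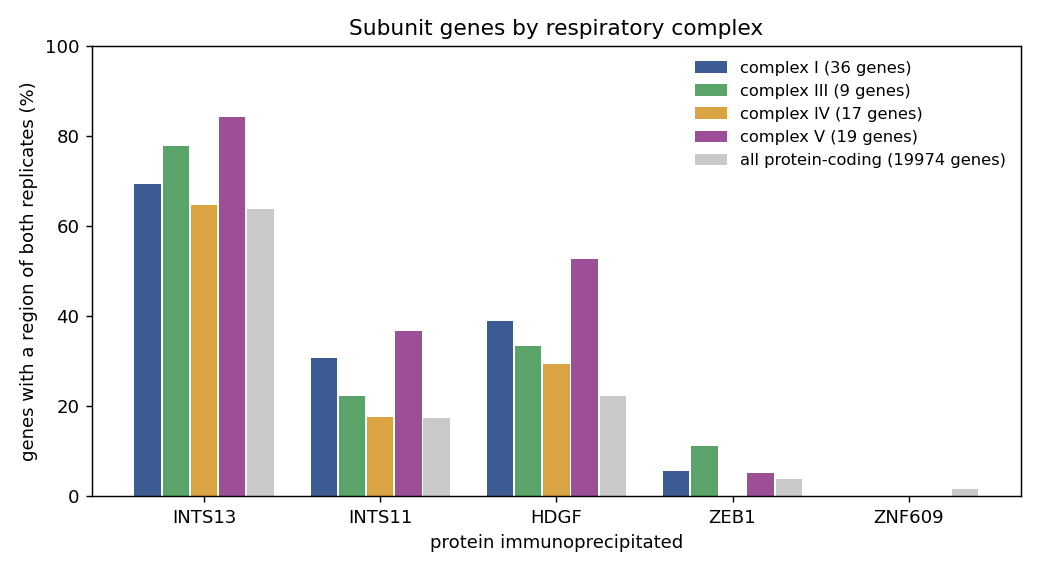
Share of genes (y axis, percent) with a region of both replicates, by respiratory complex (blue, complex I; green, III; yellow, IV; purple, V) and over all protein-coding genes (light grey), for each protein (x axis). Complex V has the tallest bar for INTS13 (84.2%), INTS11 (36.8%) and HDGF (52.6%), and ZNF609 has no bar for any complex.

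In complex V, the most heavily occupied gene was that of the inhibitor. ATP5IF1 encodes the inhibitory factor that stops ATP synthase from running backwards. It had a peak in 10 of 10 lists and was the top subunit gene of both INTS13 lists, both INTS11 lists and the first ZEB1 and ZNF609 lists. Each peak's fold is the authors' ratio of its summit to the background. Percentiles rank the authors' −log10 p of a peak within its own list, because the lists have different backgrounds. Folds and percentiles given for a gene are those of its strongest gene-end peak in each list. The peaks of the 2 lists can lie at different ends of a gene and need not form its region. The INTS13 folds were 5.37 and 3.72, at percentiles 99.9 and 99.5 of their lists, and the INTS11 folds were 3.51 and 3.1, at percentiles 99.3 and 97.8. The HDGF folds were 5.13 and 5.11, at percentiles 99.4 and 98.5. The ZEB1 peaks stood at percentiles 94.2 and 73.9 and the ZNF609 peaks at 86.1 and 36.2. The gene lies at chr1:28236124-28238100 and in a dense bin, and its INTS13 peak of replicate 2 was 16749 bp wide, so that this peak covers far more than the gene. The first INTS13 peak was 2628 bp wide with its summit 206 bp after the gene start. The ZNF609 summits of the 2 lists were 108 and 2248 bp after the start, in peaks that did not overlap, so no ZNF609 region was counted.

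The α and β subunits of the ATP synthase head are encoded by ATP5F1A and ATP5F1B and work as a pair, with the catalytic sites on β. ATP5F1A, at chr18:46080248-46104227, had no peak in any of the 10 lists within 1 kb of an end, and no peak of INTS13, INTS11 or HDGF anywhere in the gene. Its nearest INTS13 peak edges were 7.67 kb and 179 kb from a gene end in the 2 lists. The nearest HDGF edges were 179 and 2440 kb away and the nearest INTS11 edges about 5000 kb away in both lists, so peaks were sparse around this gene. ATP5F1B, at chr12:56638175-56645984, had peaks in both INTS13 lists (folds 3.89 and 2.48, percentiles 98.9 and 83.4) and in both HDGF lists (folds 3.55 and 4.18, percentiles 80.8 and 90.4). Its INTS11 peak was in replicate 1 alone (percentile 86.7). The γ subunit gene ATP5F1C, the rotor axle, had INTS13 and INTS11 regions and no HDGF peak, with INTS13 percentiles of 91.2 and 18.2. ATP5F1D, the δ subunit of the central stalk, had the highest HDGF fold of all subunit genes in replicate 1 (5.52, percentile 99.7), and its HDGF fold in replicate 2 was 4.65 (percentile 96.4).

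The c-ring subunit is encoded by 3 genes for the same mature protein, and they differed. ATP5MC1 had an INTS13 region, with folds of 3.12 and 2.81 (percentiles 92.9 and 94.1); its HDGF peaks of the 2 lists formed no shared region. ATP5MC3 had an INTS13 region with folds of 2.86 and 2.16. ATP5MC2 had no region of any protein within 1 kb of its ends, where its peaks were 1 of INTS13 in replicate 2 and 1 of HDGF in replicate 1. Its start in the promoter table lies 5093 bp inside the gene, and the 250 bases before that start lie under an INTS13 and an HDGF region. In the peripheral stalk and membrane part, ATP5PB, ATP5PO, ATP5MF and ATP5MK had regions of INTS13, INTS11 and HDGF. ATP5PO (the OSCP subunit) stood at percentiles 99.8 and 91.1 for INTS13, 89.5 and 89.1 for INTS11, and 87.5 and 94.1 for HDGF. ATP5MF, a membrane subunit, had HDGF folds of 5.32 and 3.95 (percentiles 99.6 and 84.6). For ATP5PB, ATP5MF and ATP5MK another gene's end lies within 1 kb, and a region there cannot be given to one of the genes.

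**Figure D3:**
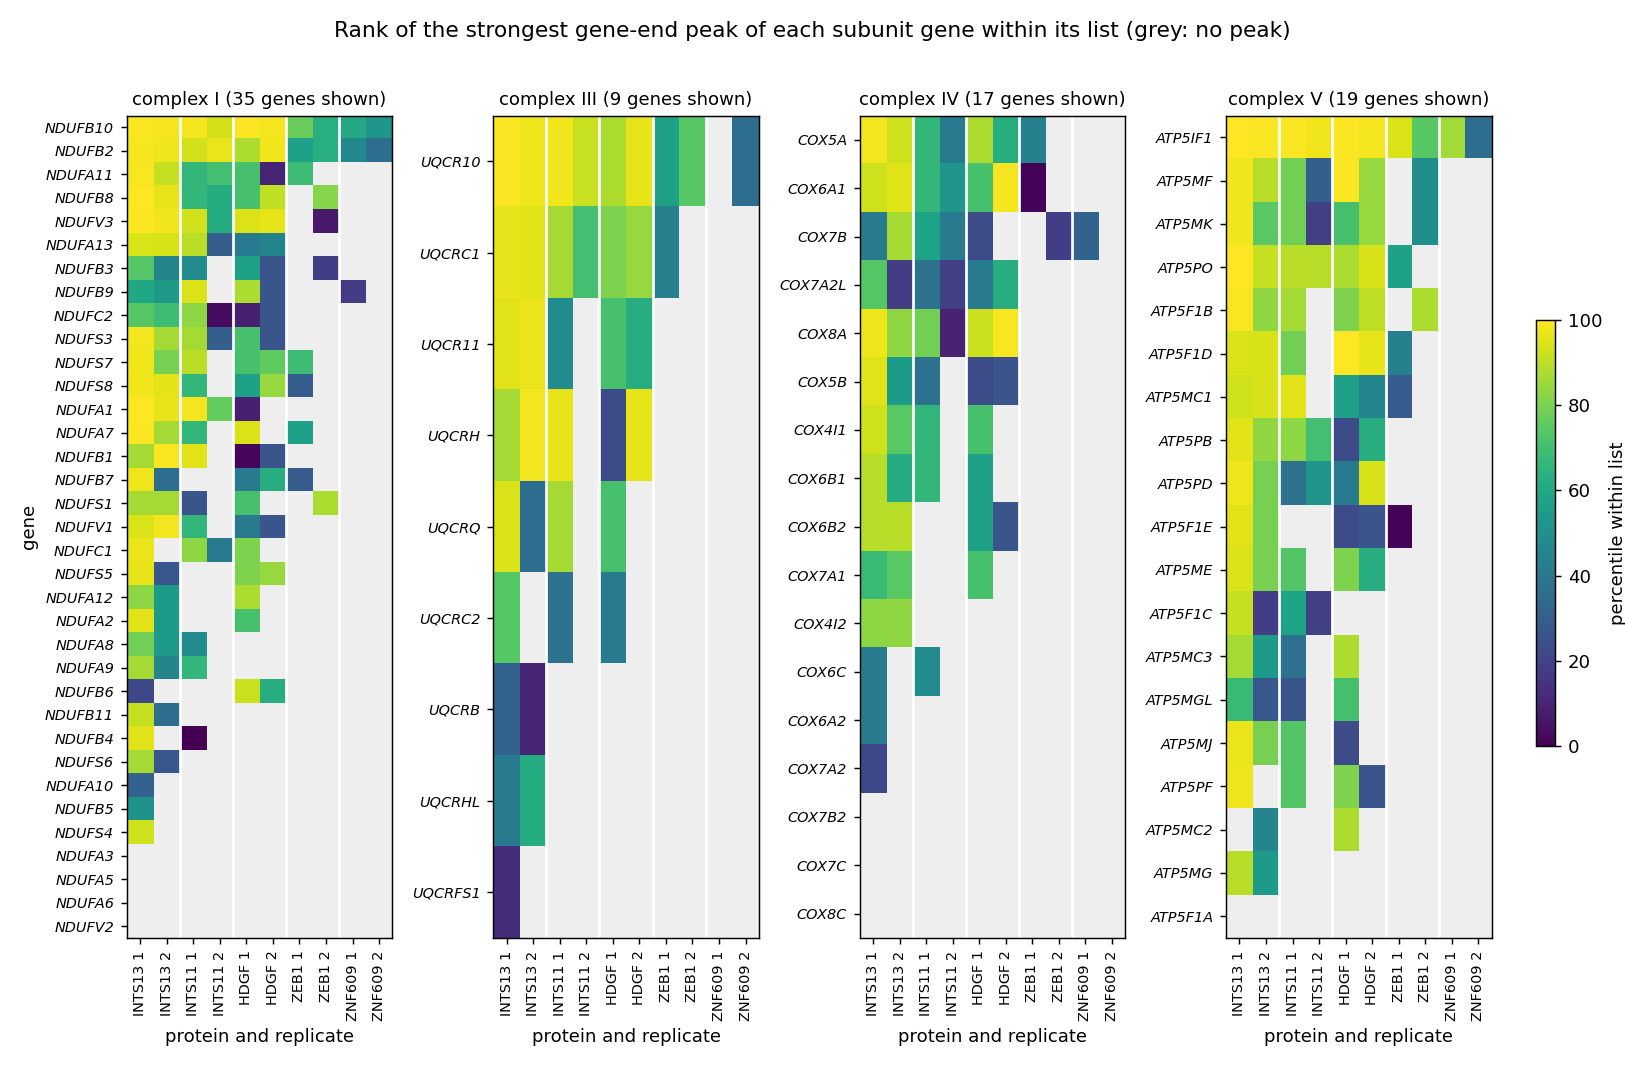
Percentile of the −log10 p of the strongest gene-end peak within its own list (colour, 0 to 100) for the subunit genes reported by name (rows, by respiratory complex) in each of the 10 lists (columns, by protein and replicate). Grey cells have no peak within 1 kb of a gene end; NDUFB10, NDUFB2 and ATP5IF1 have a peak in 10 of 10 lists, and 8 genes have grey cells only.

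In complex I, 2 accessory subunit genes of the membrane arm had a peak in 10 of 10 lists. NDUFB10, at chr16:1959538-1961975, had INTS13 folds of 4.15 and 3.4 (percentiles 99.4 and 98.8), INTS11 folds of 3.24 and 2.81 (98.5 and 93.6) and HDGF folds of 5.13 and 5.11 (99.4 and 98.5). The ribosomal protein gene RPS2 has an end within 1 kb of NDUFB10, and the INTS13 peaks there were 13899 and 12630 bp wide. NDUFB2, at chr7:140696708-140706643, with no other protein-coding end within 1 kb, had INTS13 folds of 3.81 and 3.2 (98.7 and 98), INTS11 folds of 2.76 and 3.03 (93.3 and 97.1) and HDGF folds of 3.75 and 4.88 (87.5 and 97.7). ZEB1 percentiles were 77.2 and 63.2 at NDUFB10 and 57.1 and 63.2 at NDUFB2, lower than those of the other 3 proteins. At NDUFB2 these strongest ZEB1 peaks lay at opposite ends of the gene in the lists. Both genes also had a ZNF609 peak in each list without a shared region, and both lie in dense bins.

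Among the core subunits of complex I, which carry the flavin and the iron-sulfur clusters or bind the quinone, occupancy was uneven. NDUFV1, the NADH-binding flavoprotein, and NDUFS7 and NDUFS8, of the iron-sulfur chain, had INTS13 and HDGF regions without an INTS11 region. NDUFS1, the largest of the core subunits, had an INTS13 region alone. Its strongest INTS13 peaks in the lists had folds of 2.86 and 2.55 (percentiles 86.4 and 86.5). They lay at opposite ends of the gene, with summits 303 and 45137 bp after the start. NDUFV2, which lies beside NDUFV1 in the NADH-oxidising part, had no peak in any list at an end. A list of 17 core and main subunits of the 4 complexes, which does not hold NDUFV2, was counted as a group. INTS13 regions lay at 13 of these 17 (76.5%, against 63.7% of all genes) and INTS11 regions at 4 (23.5%, against 17.4%). HDGF regions lay at 7 (41.2%, against 22.2%) and ZEB1 regions at none (against 3.78%). The core genes without INTS13 were ATP5F1A, ATP5MC2, UQCRC2 and UQCRFS1.

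The accessory genes NDUFA11, NDUFA13, NDUFB8 and NDUFV3 also had regions of INTS13, INTS11 and HDGF. For NDUFA13 and NDUFV3, and for NDUFA1 and NDUFA7 below, another gene's end lies within 1 kb. A region there cannot be given to one of the genes. NDUFB8, NDUFV3 and NDUFA1 lie in dense bins. NDUFV3, at chr21:42893309-42913299, stood at percentiles 99.5 and 98 for INTS13, 93.3 and 61.9 for INTS11, and 94.9 and 96.4 for HDGF. NDUFB8 stood at 99.7 and 96.6 for INTS13 and 70.9 and 90.4 for HDGF. NDUFA11 and NDUFA13 were high for INTS13 (98.9 and 91.1; 94.3 and 94.1) and low for HDGF in at least 1 list (70.9 and 10.2; 40.7 and 45.2). NDUFA1, a small subunit needed for complex I assembly, had INTS13 percentiles of 99.7 and 96.6 and INTS11 percentiles of 98.1 and 76.5, and no HDGF region. NDUFA7 had INTS13 percentiles of 99.4 and 86.5, and its HDGF peak within 1 kb was in replicate 1 alone (94.9). Some of these pairs of percentiles come from opposite ends of the gene in the lists. This was so for INTS13 at NDUFA11 and NDUFA7 and for HDGF at NDUFB8.

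In complex III, UQCR10 and UQCRC1 had the most proteins. UQCR10, a small subunit of the membrane part, at chr22:29767369-29770413, had peaks in 9 lists and regions of 4 proteins, with INTS13 percentiles of 99.5 and 97.6, INTS11 percentiles of 97.7 and 91.6, HDGF percentiles of 87.5 and 96.4 and ZEB1 percentiles of 57.1 and 73.9. It shares 1 kb with an end of ZMAT5 and lies in a dense bin. UQCRC1 and UQCRC2 encode the paired core proteins and also differed. UQCRC1 lies in a dense bin and UQCRC2 does not. UQCRC1 had regions of INTS13, INTS11 and HDGF (INTS13 percentiles 96.3 and 95.1). UQCRC2 had no region, and its INTS13, INTS11 and HDGF peaks were in replicate 1 alone (percentiles 73.5, 37.6 and 40.7). UQCRFS1, the Rieske iron-sulfur protein, had peaks of INTS13 in replicate 1 alone, the stronger at percentile 12.9.

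In complex IV, COX5A, COX6A1 and COX8A had regions of INTS13, INTS11 and HDGF. COX5A stood at percentiles 98.4 and 92.8 for INTS13, and its strongest INTS11 and HDGF peaks lay at the 3′ end, with summits 18114 and 18231 bp after the start for INTS11 and 18663 and 18045 bp for HDGF. COX8A had HDGF folds of 3.94 and 5.34 (percentiles 92.1 and 99.1), with summits 1680 and 1737 bp after the start, and COX6A1 had HDGF folds of 3.35 and 5.11 (percentiles 70.9 and 98.5), with summits 1262 and 1228 bp after the start. COX4I1, the ubiquitous form of subunit 4, and COX5B had INTS13 regions and no region of the other proteins. Isoforms known from restricted tissues were counted apart. COX4I2 (known from lung), COX7A1 (heart and muscle) and COX6B2 (testis) had INTS13 regions, and COX6B2 also an HDGF region. COX6A2 (heart and muscle) had 1 INTS13 peak in replicate 1, and COX7B2 and COX8C had none in any list. INTS13 regions thus lay at 50% of these 6 isoform genes, against 63.7% of all genes. None of the 6 had an INTS11 peak in either list, against 50% and 22.2% of all genes in the 2 lists.

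Across all 81 genes the number of proteins with a region was skewed towards more of them. No protein had a region at 19 genes (23.5%, against 35.4% of all genes), 1 protein at 27 (33.3%, against 36.4%) and 2 proteins at 18 (22.2%, against 16.8%). For 3 proteins it was 13 genes (16%, against 8.05%), for 4 proteins 4 genes (4.94%, against 2.19%) and for 5 proteins none of the 81 (against 1.14%). The 4 genes with 4 proteins, ATP5IF1, NDUFB10, NDUFB2 and UQCR10, are all in dense bins and are the 4 with a ZEB1 region. INTS13, INTS11 and HDGF regions met at 17 genes (21%, against 10.6%). INTS13 and HDGF without INTS11 were at 13 (16%, against 10.8%), INTS13 and INTS11 without HDGF at 5 (6.17%, against 6.72%), and INTS13 without INTS11 and HDGF at 24 (29.6%, against 35.6%).

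An INTS13 region was also present at most subunit genes with another protein. It lay at 30 of the 32 with HDGF (93.8%, against 96.4% of all genes with HDGF) and at 22 of the 23 with INTS11 (95.7%, against 99.1%). In the other direction, HDGF was at 50.8% of the 59 subunit genes with INTS13, against 33.5% of all genes with INTS13, and INTS11 at 37.3%, against 27.1%. ATP5PF, of the peripheral stalk, and NDUFB6 had HDGF regions without INTS13, and NDUFC1 had an INTS11 region without INTS13; these 3 genes are named after their values were seen. Each of the 3 had an INTS13 peak in replicate 1.

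At the gene ends HDGF was placed differently from the Integrator subunits, more clearly in replicate 1 than in replicate 2. Strand and start were known for 66 of the 81 genes. HDGF regions lay at the start of 16 of these (24.2%, against 15.4% of 15812 genes) and at the 3′ end of 22 (33.3%, against 14.9%). They were at the 3′ end alone in 12 genes and at the start alone in 6. INTS13 regions lay at the start of 42 (63.6%, against 60.1%) and at the 3′ end of 32 (48.5%, against 43.4%), and INTS11 regions at the start of 16 (24.2%, against 15.2%) and at the 3′ end of 11 (16.7%, against 10.4%). In the single lists HDGF peaks were at the 3′ end of 40 and 27 genes and at the start of 22 and 24. Both HDGF lists thus had more subunit genes at the 3′ end than at the start, while over all genes the HDGF shares at the 2 ends were almost equal. INTS13 peaks were at the start of 57 and 41 genes and at the 3′ end of 41 and 40. INTS11 peaks were at the start of 41 and 21 and at the 3′ end of 26 and 13. In replicate 2 the ends thus differed by few genes for HDGF and INTS13.

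Around the start, HDGF summits were sparse within the first kb of the gene and dense after it. Per 100 subunit genes there were 10.6 and 6.06 summits in the first kb in the 2 lists, against 8.03 and 7.97 per 100 of all genes. From 1 to 2 kb there were 37.9 and 25.8 per 100 subunit genes, against 19.5 and 17.5, and in the kb before the start 18.2 and 21.2, against 14.3 and 14. The dip is also in the values over all genes. INTS13 and INTS11 showed no dip: INTS13 had 39.4 and 33.3 summits per 100 subunit genes in the first kb, against 40.6 and 31.3, and INTS11 had 36.4 and 21.2, against 24.3 and 8.43.

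**Figure D4:**
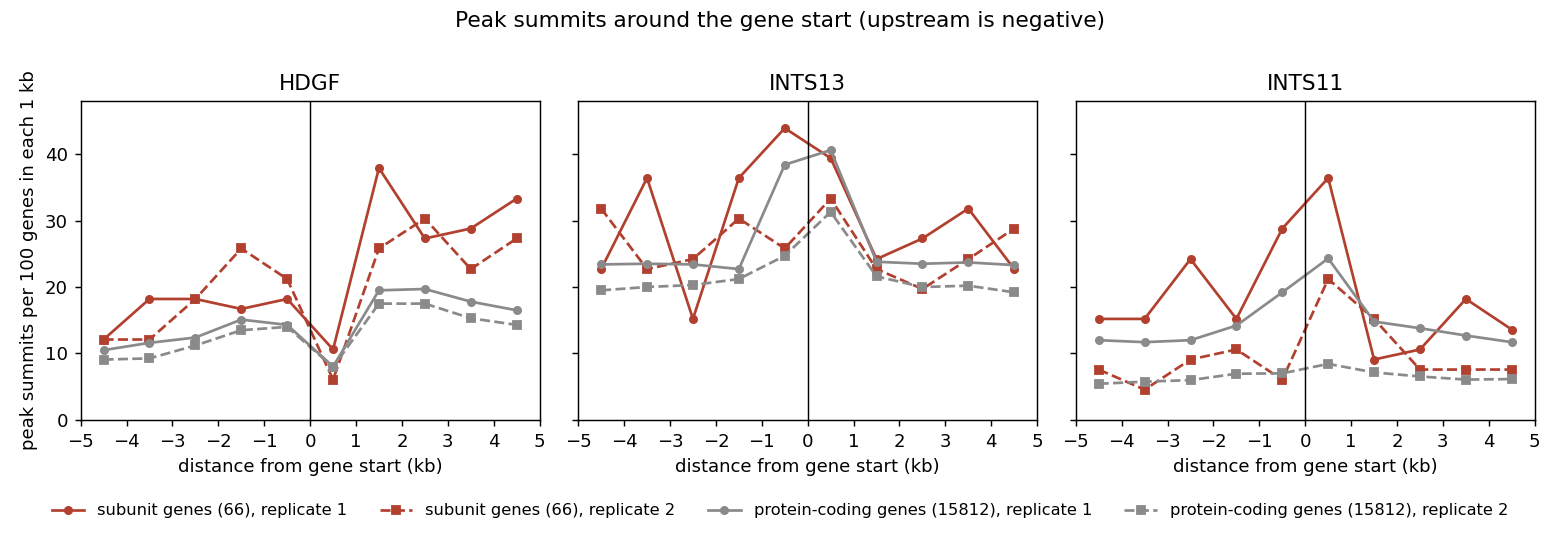
Peak summits per 100 genes in each 1-kb step (y axis) by distance from the gene start (x axis, kb, upstream negative), for HDGF, INTS13 and INTS11. Red lines are the 66 subunit genes and grey lines all 15812 genes with known strand; solid lines with circles are replicate 1 and dashed lines with squares replicate 2. In both groups HDGF is lowest in the first kb, where INTS13 and INTS11 are high.

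Inside the genes, HDGF summits were denser at subunit genes than over all genes in both lists. The body was taken from 1 kb after the start to the gene end, in genes of 5 to 20 kb, so that lengths were alike; this comparison was added after the data were seen. HDGF had 4.19 and 3.15 summits per 10 kb of body in 37 subunit genes, against 1.83 and 1.58 in 4560 genes. INTS13 had 3.55 and 2.77, against 2.71 and 2.29, and INTS11 had 1.92 and 1.25, against 1.41 and 0.687. At least 1 HDGF summit lay in the body of 33 and 31 of the 37 subunit genes, 89.2% and 83.8%, against 57% and 53.4% of all genes of that length. Outside dense bins HDGF had 3.07 and 2.42 summits per 10 kb in 23 subunit genes, against 1.3 and 1.08 in 3330 genes, and 20 and 18 of the 23 had a summit, against 47% and 42.9% of all genes there. INTS13 outside dense bins had 2.82 and 2.42 summits per 10 kb, against 2.42 and 2. INTS11 there had 0.89 and 0.346, against 0.862 and 0.217, from 18 and 7 summits. In the full count of this length COX5A alone held 8 of 66 and 10 of 43 INTS11 summits of the subunit genes. Over genes of all lengths above 2 kb HDGF had 1.77 and 1.23 summits per 10 kb in subunit genes, against 0.862 and 0.663, and INTS13 had 1.66 and 1.29, against 1.75 and 1.45. NDUFV3 held the most HDGF body summits of any subunit gene of this length, 11 and 9.

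**Figure D5:**
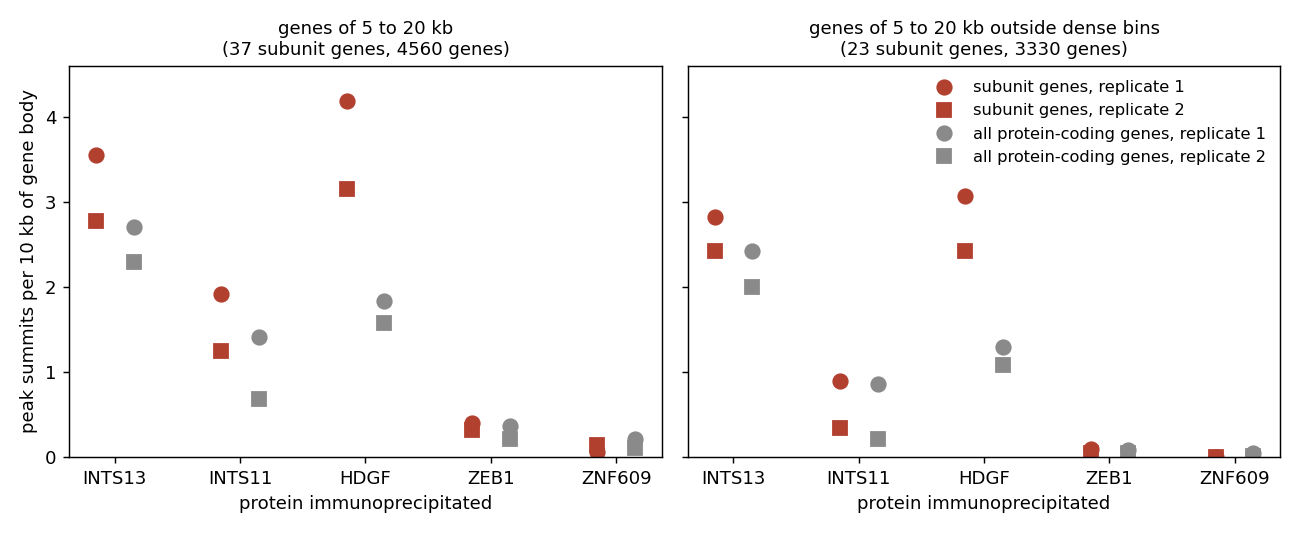
Peak summits per 10 kb of gene body (y axis) for each protein (x axis) in genes of 5 to 20 kb, all of them on the left and those outside dense bins on the right. Red points are subunit genes, grey points all protein-coding genes, circles replicate 1 and squares replicate 2. The red HDGF points, 4.19 and 3.15 on the left, lie above the grey ones, 1.83 and 1.58.

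Other gene groups with housekeeping roles showed part of the same picture. Of 77 mitochondrial ribosomal protein genes, 72.7% had an INTS13 region, 27.3% an INTS11 region and 37.7% an HDGF region, close to the 72.8%, 28.4% and 39.5% of the subunit genes. Of 53 assembly factors of the respiratory complexes, 77.4% had an INTS13 region, 22.6% an INTS11 region and 26.4% an HDGF region. Of 40 proteasome subunit genes, 67.5%, 20% and 32.5% had regions of INTS13, INTS11 and HDGF. Of the 6 subunit genes outside the naming rule (complex II, CYC1 and NDUFAB1), 4 had an INTS13 region, 1 an INTS11 region and 2 an HDGF region. In bodies of 5 to 20 kb, HDGF summits per 10 kb were 2.83 and 2.43 in 32 mitochondrial ribosomal genes, 2.64 and 2.58 in 16 proteasome genes and 2.28 and 2.05 in 17 assembly factors, between the subunit genes (4.19 and 3.15) and all genes (1.83 and 1.58). The shares of genes with a body summit were closer. They were 84.4% and 78.1%, 75% and 68.8%, and 88.2% and 76.5% in these groups, against 89.2% and 83.8% of subunit genes. The gene-end order was not the same in each list. In replicate 1 HDGF peaks were at 69.1% of subunit genes, 61% of mitochondrial ribosomal genes, 55% of proteasome genes and 54.7% of assembly factors. In replicate 2 subunit genes, at 49.4%, were lower than these groups, at 54.5%, 52.5% and 50.9%. No test of the differences between these groups was made.

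Subunit genes with an INTS13 peak had somewhat higher ranks than other genes, and those with an INTS11 or HDGF peak were higher in 1 of the 2 lists. The strongest gene-end INTS13 peak of a subunit gene had a median percentile of 94.3 and 83.4 in the 2 lists, against 89.1 and 74.6 over all genes with a peak. For INTS11 the medians were 73.2 and 52.3, against 66.2 and 52.3, and for HDGF 70.9 and 68.8, against 70.9 and 62.2. These medians cover only genes that passed the peak caller's threshold. For HDGF, subunit genes thus had peaks more often, with a median rank equal to that over all genes in replicate 1.

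The 8 genes with no peak of any list at an end were NDUFA3, NDUFA5, NDUFA6, NDUFV2, COX7B2, COX7C, COX8C and ATP5F1A. NDUFA6 alone lies in a dense bin. NDUFA5, of 64655 bp, held 4 INTS13 peaks and 1 INTS11 peak in replicate 1 and 5 and 3 HDGF peaks of the 2 lists inside the gene, beyond 1 kb from its ends; the other 7 held no peak of INTS13, INTS11 or HDGF anywhere in the gene. COX7C, a small complex IV subunit used in all tissues, had its nearest INTS13 peak edges 12 and 47 kb away and its nearest HDGF edges 710 and 694 kb away. NDUFA3, on chromosome 19, had its nearest INTS13 edges 77.7 and 79.4 kb away, and NDUFA6, on chromosome 22, 7.75 and 7.98 kb away. A missing peak says that none passed the caller's threshold in these libraries, and how reads that map to several places were treated is not given in the sources used here. This bears on genes with near-copies, such as UQCRH and UQCRHL or ATP5MG and ATP5MGL, and on those with many pseudogenes, such as COX6C, with 18 in the gene table.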

How the data were processed

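Chromatin immunoprecipitation and sequencing was done by the authors; FastQC, Trimmomatic, Bowtie, Picard and MACS2 are named in the submitters' processing notes. Tool versions, thresholds and control were not given in the sources used here. GRCh38 was taken as the build from contig names. The deposited lists, 1 per library, give for each peak the authors' fold (a linear ratio over background), the authors' p-value and q-value on a −log10 scale, and a deposited score. They were used within a list only, and the depth is unknown.

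Peaks on chromosomes 1 to 22 and X were used with Python 3.11.15, numpy 2.4.6 and pandas 2.3.3. Peaks of a protein's 2 lists that overlapped by 1 bp or more were merged, and regions with a peak of each list were kept. Genes came from RefSeq (59098 genes, 19974 protein-coding). A gene counted where a region lay within 1 kb of an end. Promoters gave strand for 66 of 81 subunit genes. Percentiles rank the authors' −log10 p within a list, and the strongest peak at a gene end was the one with the highest −log10 p. The counting was tested on simulated data.

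The members, lists and alternatives were chosen with earlier results of these data known. Named are genes with regions of 3 or more proteins, up to 10 genes each by highest mean HDGF or INTS11 percentile, genes with no peak, core subunits and ATP5IF1, restricted isoforms, and genes with ZEB1 or ZNF609 regions. 1 gene that the rule names is counted but not reported here by name. Other genes were named after their values were seen, as were length classes, gene bodies and dense bins chosen. Peak lists measure no expression, so cell markers were not checked. Alternatives were windows of 500 bp and 2 kb, summits, starts only, a −log10 q of 5, the top 10000 peaks, peaks under 10 kb, a stricter overlap of the replicates, dense bins removed, and single lists.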

Additional observations from a re-analysis of the deposited data

How the results depend on the processing

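The subunit genes with an INTS13, INTS11 or HDGF region exceeded the share over all protein-coding genes in 11 of 11 alternatives each, by 1.51 to 14.3, 1.23 to 14.2 and 2.56 to 30.7 percentage points. Counts of genes moved more. With a −log10 q of 5 or more the counts were 21 for INTS13, 4 for INTS11, 5 for HDGF and 0 for ZEB1, and with the top 10000 peaks 5, 3, 5 and 0. Outside dense bins they were 38, 9, 15 and 0. With summits inside the window ZEB1 had 2 genes and ZNF609 had 1, and with gene starts only HDGF had 16 of 66. With 1 list in place of both, the counts were 61 to 72 for INTS13, 25 to 52 for INTS11, 40 to 56 for HDGF, 13 to 16 for ZEB1 and 4 to 5 for ZNF609. For ZEB1 the differences were −1.26 points by summits, −0.225 by q, −0.926 by top peaks and −0.169 outside dense bins, each opposite in sign to the main difference. For ZNF609 the difference was 1.5 points without replicate 1, also opposite in sign to its main difference. Without replicate 2 it was −0.826, with the same sign. Differences that moved by more than the spread between lists kept their sign otherwise: for ZEB1 2.97 (starts only) and 6.46 to 7.57 (single lists); for HDGF 3.51 (q) and 2.56 (top peaks) and up to 30.7 without replicate 2; for INTS11 2.11 (q) and 1.23 (top peaks); for INTS13 3.57 (starts only), 14.3 (summits), 1.51 (top peaks), 11.2 (outside dense bins) and 7.17 without replicate 1. The fewer peaks, genes or ends that such an alternative keeps lower the counts by construction; the cause of the other shifts was not tested.

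The limits are those of peak lists. A peak shows that the caller's threshold was passed, and the depth behind it is unknown. With 2 libraries per protein, and no word on separate cultures, the spread between lists may be technical. A region at a gene end within 1 kb of a neighbour cannot be assigned to either gene, and this touched 37 of the 81 subunit genes. Genes in dense bins have peaks of most proteins, and 23 of the 81 lie there. Strand was known for 66 genes.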
